A study of Mus musculus with 21 samples.

Results

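Primary mouse hepatocytes given the RNAi agent TTR-1186 at 2 µM were set against the same cells given it at 0.2 µM. The comparison uses the 6 libraries whose titles carry TTR-1186 and either dose, 3 at 2 µM and 3 at 0.2 µM, of 21 libraries in the series. The hepatocytes are labelled wild type (WT), every library was taken on day 1, and no group carries an engineered allele. The series also holds 3 libraries each of the agents TTR-1236 and Reference 4 at both doses, and 3 of cells given PBS without an agent. Expression was measured with QuantSeq, a method that counts messenger RNA by its 3′ ends. All 3 agents are directed against Ttr, which encodes transthyretin. Nothing in the labels ties the 3 libraries of a group to different mice or dishes, so the p-values reflect library-to-library spread that may be technical.

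Small interfering RNAs enter Argonaute proteins, and the guide strand leads the complex to messenger RNA that pairs with it, which is then cut. Hepatocytes take up suitably conjugated agents through the asialoglycoprotein receptor, and they are the main source of transthyretin, the carrier of thyroid hormone and of retinol-binding protein in blood. A higher dose of an agent can act further on its target, and can also touch other messenger RNAs or the state of the cell, so the dose comparison asks which genes differ between the doses of 1 agent.

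The TTR-1186 libraries held 35065348, 22296414 and 26990803 reads at 2 µM and 23089411, 17361422 and 18470744 reads at 0.2 µM, over 9657 genes. Replicate 2 at 2 µM stood apart from the other TTR-1186 libraries. It had 109 genes without a read, whereas the other 5 had 0 to 2, and its Pearson correlation with them across genes was 0.886 to 0.926, whereas theirs with each other was 0.938 to 0.980. The counts between the doses, the list medians and the genes named from the lists are therefore given with and without it, and the 24 leading genes without it as a range. Levels are CPM, reads scaled to 1000000 per library, and differences are on the scale of log2(CPM + 1), 2 µM minus 0.2 µM, so that 1 means about 2-fold. Hepatocyte markers were present, with 11 of 12 measured, and their summed level was 1.65% to 1.98% of CPM at 2 µM and 2.03% to 2.26% at 0.2 µM, although 6 of the 11 were higher and their median log2 difference was 0.19 (7 higher and 0.21 without replicate 2). Of the markers of other liver cells, 2 of 11 macrophage, 2 of 9 sinusoidal endothelial, 2 of 11 stellate, 3 of 7 cholangiocyte and 0 of 7 lymphocyte genes were measured. The measured macrophage markers summed to 77 to 120 CPM at 2 µM and 87 to 88 CPM at 0.2 µM, and the cholangiocyte markers to 34 to 53 CPM and 42 to 50 CPM. The stellate markers summed to 31 to 50 CPM at 2 µM and 26 to 37 CPM at 0.2 µM, and the endothelial markers to 2 to 14 CPM and 10 to 21 CPM. The defining macrophage genes Clec4f and Adgre1 and the lymphocyte gene Cd3e had no value here. In bulk RNA fewer cells of a type and less RNA per cell cannot be told apart, and the part of other cells in the results was not tested.

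No gene passed an adjusted p of 0.05 between the doses in limma (0 of 9657, 0% in either direction), and the lowest adjusted p was 0.137. At an unadjusted p under 0.05, 878 genes (9.09%) were higher and 537 (5.56%) lower at 2 µM. This excess of higher genes depended on the scaling and on single libraries. It was 733 higher and 706 lower with TMM-scaled CPM, 735 and 783 without replicate 3 at 2 µM, and 523 and 685 without replicate 2 at 0.2 µM. All 3 libraries at 2 µM lay above all 3 at 0.2 µM for 1352 genes (14.0%), and below them for 628 (6.50%). A difference of at least 2-fold was seen for 471 genes, 175 higher and 296 lower, and the median difference of all genes was 0.01. Without replicate 2 the count past the threshold was again 0, with a lowest adjusted p of 0.721. Then 458 genes (4.74%) were higher and 152 (1.57%) lower at an unadjusted p under 0.05, and the genes at least 2-fold apart numbered 217, of which 156 were higher and 61 lower. The groups without it failed to overlap for 18.6% of genes in the higher and 8.99% in the lower direction. Leaving out a library can only keep or raise these shares, so the rise is no sign of clearer separation. On read counts, edgeR's quasi-likelihood test also called 0 genes, with 746 higher and 538 lower at an unadjusted p under 0.05. DESeq2, which gave an adjusted p to 7597 genes here, called 71 of them, 49 higher and 22 lower. Among the 71 were 23 of the 24 leading genes described next and Cebpa, Sod2, Rpl7a, Atp5g3, Gch1, mt-Ty and mt-Nd5. The leading genes were picked by their limma p on these same libraries, so their presence among the 71 is largely set by that choice. DESeq2 called 0 of 9657 without replicate 2, when 323 were higher and 306 lower at an unadjusted p under 0.05. The median standard error of a difference was 0.29, which sets how small a difference these libraries could show. The values below therefore describe the genes that lead the comparison, and none of them is a call of the main test.

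Ttr (ENSMUSG00000061808), which spans 20665280 to 20674321 of chromosome 18 in mm10 on the plus strand, was under 1% of its level in PBS at both doses. It was at 7.59, 15.1 and 10.4 CPM at 2 µM, from 266, 336 and 281 reads, with exact Poisson 95% intervals of 6.70 to 8.55, 13.5 to 16.8 and 9.23 to 11.7 CPM that cover counting error only. At 0.2 µM it was at 8.45, 9.62 and 3.19 CPM, from 195, 167 and 59 reads, with intervals of 7.30 to 9.72, 8.22 to 11.2 and 2.43 to 4.12 CPM. The groups overlapped, since replicate 1 at 2 µM lay below replicates 1 and 2 at 0.2 µM. The doses differed by 0.63 on the log2 scale (95% interval -0.23 to 1.5, limma adjusted p 0.493), and 0.40 without replicate 2 (-0.56 to 1.36, adjusted p 0.952). The PBS libraries held 2272, 2168 and 2336 CPM. As a share of the PBS mean, Ttr was 0.336%, 0.667% and 0.461% at 2 µM and 0.374%, 0.426% and 0.141% at 0.2 µM. The interval allows a level at 2 µM from 0.23 lower to 1.5 higher on the log2 scale.

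The genes that led in the higher direction included Dusp1, Tspan12, Ube2d3, Lman2 and Rps28. They are the 12 with the smallest unadjusted p among protein coding or mitochondrially encoded genes that averaged 10 CPM or more and whose doses did not overlap, so their separation is part of how they were chosen. Their log2 differences were 0.59 to 1.16, with unadjusted p of 2.76e-05 to 3.70e-04 and limma adjusted p of 0.137. Without replicate 2 the differences were 0.42 to 1.05. Leaving out a library cannot make separated groups overlap, so the groups of all 12 stayed apart by the way they were chosen.

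Dusp1, a phosphatase that switches off MAP kinases, was at 63.8, 91.6 and 81.5 CPM at 2 µM, against 47.5, 32.3 and 29.8 CPM at 0.2 µM (log2 difference 1.10, SE 0.24). It lies on the minus strand of chromosome 17, from 26505590 to 26562128. Its exons overlap Ergic1 on the opposite strand, which was at a mean of 237 CPM and a difference of 0.07. The lowest library at 2 µM was replicate 1, and the highest at 0.2 µM was also replicate 1. Tspan12, a membrane protein of Norrin and Frizzled signalling, was at 22.0, 28.6 and 26.6 CPM at 2 µM, against 9.96, 10.6 and 13.3 CPM at 0.2 µM (1.12, SE 0.26). Its lowest value at 2 µM was well above its highest at 0.2 µM. Ube2d3, an enzyme that passes ubiquitin to substrates, was at 344, 500 and 367 CPM at 2 µM, against 238, 293 and 267 CPM at 0.2 µM (0.59, SE 0.14).

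Lman2, a lectin that escorts glycoproteins out of the endoplasmic reticulum, was at 76.2, 85.3 and 83.4 CPM at 2 µM, against 55.1, 45.8 and 47.2 CPM at 0.2 µM (0.72, SE 0.16). Kdelr1, the receptor that returns escaped proteins to the endoplasmic reticulum, was at 166, 270 and 187 CPM at 2 µM, against 126, 121 and 134 CPM at 0.2 µM (0.67, SE 0.16). Tmed4, a cargo receptor of early secretory vesicles, was at 22.7, 32.6 and 26.8 CPM at 2 µM, against 17.9, 8.47 and 10.1 CPM at 0.2 µM (1.16, SE 0.28). For all 3 genes replicate 2 was the highest library at 2 µM. Sla2, named for a Src-like adaptor of lymphocytes, was at 158, 177 and 165 CPM at 2 µM, against 112, 100 and 113 CPM at 0.2 µM (0.61, SE 0.15). Its exons overlap Rab5if on the opposite strand, which was at 158, 177 and 165 CPM at 2 µM, against 115, 100 and 114 CPM at 0.2 µM. The rows hold nearly the same values, and without a stated strand setting the reads of these genes cannot be told apart.

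The 3 ribosomal protein genes among the 12 were Rps28, Rpl22 and Rpl34. Rps28, a subunit of the small ribosome on chromosome 17, was at 408, 560 and 536 CPM at 2 µM, against 341, 176 and 242 CPM at 0.2 µM (1.02, SE 0.22). Rpl22 was at 392, 566 and 426 CPM at 2 µM, against 318, 234 and 285 CPM at 0.2 µM (0.72, SE 0.16). Rpl34 was at 241, 298 and 266 CPM at 2 µM, against 190, 130 and 160 CPM at 0.2 µM (0.75, SE 0.17). All 3 genes had replicate 2 highest at 2 µM and replicate 2 lowest at 0.2 µM. Ribosomal protein genes have many near-identical pseudogenes, so the split of their reads is uncertain. The remaining pair, mt-Tn and mt-Tc, are mitochondrial transfer RNA genes described further on.

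**Figure D1:**
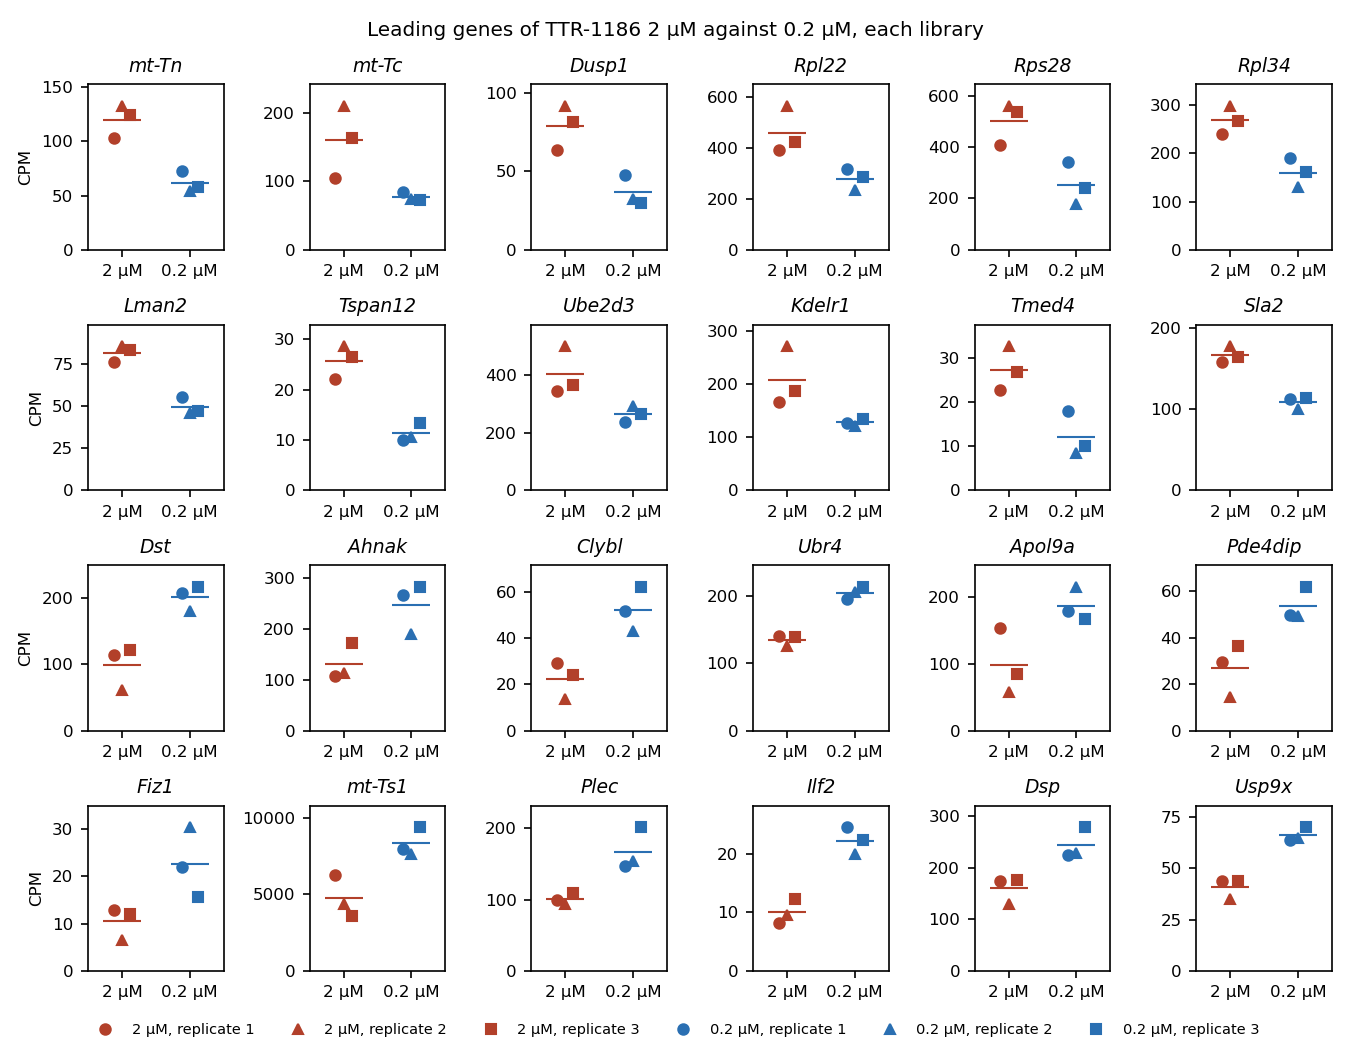
Level (CPM, linear axes from 0) of the 24 leading genes in each TTR-1186 library, with 2 µM on the left and 0.2 µM on the right of each panel; points are libraries, marked by replicate, and lines are group means. The upper 2 rows are the 12 genes higher at 2 µM and the lower 2 rows the 12 lower ones; the groups do not overlap in any panel, which is how the genes were chosen, and replicate 2 (triangle) is often the extreme point at 2 µM.

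The genes that led in the lower direction included Dst, Ahnak, Plec, Ubr4 and Clybl. By the same rule their log2 differences were -1.24 to -0.60, with unadjusted p of 1.49e-04 to 0.00140 and limma adjusted p of 0.137 to 0.155. Without replicate 2 they were -1.06 to -0.47, and the groups of all 12 stayed apart, which again follows from the choice of genes. Dst, which encodes dystonin, a giant linker between filament systems, was at 113.5, 61.1 and 121.7 CPM at 2 µM, against 207.5, 179.2 and 216.2 CPM at 0.2 µM (-1.07, SE 0.24, and -0.76 without replicate 2). The gene spans 33908225 to 34308661 of chromosome 1 (plus strand). Ahnak, a giant scaffold protein beneath the plasma membrane, was at 107, 112 and 171 CPM at 2 µM, against 265, 189 and 282 CPM at 0.2 µM (-0.92, SE 0.21). Both genes had replicate 2 lowest at 0.2 µM, and for Ahnak replicate 1, not replicate 2, was the lowest library at 2 µM. Plec, the linker protein plectin, was at 99.5, 93.6 and 109 CPM at 2 µM, against 147, 154 and 202 CPM at 0.2 µM (-0.72, SE 0.19). Dsp, the desmosome protein desmoplakin, was at 174, 130 and 176 CPM at 2 µM, against 224, 229 and 279 CPM at 0.2 µM (-0.61, SE 0.17). Pde4dip, the centrosome and Golgi protein myomegalin, was at 29.3, 14.3 and 36.5 CPM at 2 µM, against 49.6, 49.3 and 61.9 CPM at 0.2 µM (-1.07, SE 0.27). In these 3 genes replicate 2 was the lowest library at 2 µM. The list of culture dedifferentiation and cytoskeleton genes had 31 of 52 members higher, with a median of 0.10 (0.08 without replicate 2).

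Ubr4, a very large ubiquitin ligase of the N-degron pathway, was at 140, 125 and 138 CPM at 2 µM, against 195, 206 and 213 CPM at 0.2 µM (-0.60, SE 0.15). Usp9x, a deubiquitinase, was at 43.9, 35.1 and 43.8 CPM at 2 µM, against 63.8, 64.9 and 70.1 CPM at 0.2 µM (-0.69, SE 0.19). The replicates of both genes were close together at each dose. Clybl, a mitochondrial lyase that clears citramalyl-CoA, was at 29.3, 13.6 and 23.9 CPM at 2 µM, against 51.8, 42.8 and 62.1 CPM at 0.2 µM (-1.24, SE 0.29), the largest difference of the 12. Ilf2, a partner of double-stranded RNA binding proteins, was at 8.24, 9.51 and 12.3 CPM at 2 µM, against 24.6, 19.9 and 22.4 CPM at 0.2 µM (-1.09, SE 0.30). Fiz1, a zinc finger protein, was at 12.9, 6.5 and 12.1 CPM at 2 µM, against 22.0, 30.4 and 15.6 CPM at 0.2 µM (-1.04, SE 0.27). Ilf2 kept its size without replicate 2, at -1.06. Exons of Fiz1 overlap Zfp524 on the opposite strand, which was at a mean of 13.1 CPM and a difference of -0.18. Those of Ilf2 overlap Snapin, also on the opposite strand, at a mean of 7.46 CPM and a difference of 0.02. On the same strand Ubr4 overlaps Emc1 (49.1 CPM, -0.16) and Plec overlaps Parp10 (28.6 CPM, -0.26). Apol9a, an apolipoprotein L gene with a close relative (Apol9b) that could take its reads, was at 153, 58.0 and 84.5 CPM at 2 µM, against 178, 215 and 167 CPM at 0.2 µM (-1.02, SE 0.25). The last of the 12, mt-Ts1, is a mitochondrial transfer RNA gene.

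Further genes came up among the 8 smallest p in either direction when replicate 2 was left out. Gch1, the first enzyme of tetrahydrobiopterin synthesis, was at 32.3, 39.8 and 48.1 CPM at 2 µM, against 22.2, 4.67 and 9.85 CPM at 0.2 µM, with a log2 difference of 1.85 with replicate 2 and also 1.85 without it. Eif3i, a subunit of a translation initiation factor, was at 102, 92.5 and 111 CPM at 2 µM, against 84.2, 44.4 and 60.3 CPM at 0.2 µM. For both genes the highest library at 2 µM was replicate 3. Lnpep, an aminopeptidase of insulin-sensitive vesicles, was at 6.45, 11.3 and 6.30 CPM at 2 µM, against 15.4, 12 and 14.5 CPM at 0.2 µM, with replicate 2 the closest to the 0.2 µM libraries. The limma adjusted p of these 3 genes without replicate 2 was 0.721 to 0.722.

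Across 35 gene lists, 0 members passed the threshold in any list. The lists are described by how many measured members were higher or lower, beside all genes, of which 51.1% were higher and 48.9% lower. Cytosolic ribosomal protein genes were higher at 2 µM for 64 of 80 measured and lower for 16, with a median of 0.25 against 0.01 for all genes. At an unadjusted p under 0.05, 37 of the 80 were higher and 0 lower, beside 9.09% and 5.56% of all genes. Without replicate 2, 65 of 80 were higher, beside 55.8% of all genes, with a median of 0.18, against 0.05 for all genes, and 21 had an unadjusted p under 0.05. The largest difference in the list was that of Rpl7a, at 312, 324 and 377 CPM at 2 µM, against 230, 104 and 157 CPM at 0.2 µM (1.10, limma adjusted p 0.147, and 1.13 without replicate 2). As a summed share of CPM, the list made up 8.95%, 9.82% and 8.56% at 2 µM and 8.12%, 9.08% and 7.87% at 0.2 µM, so the summed shares overlapped even though most single members were higher.

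Nuclear-encoded genes of the respiratory chain and ATP synthase were higher for 52 of 74 and lower for 22, with a median of 0.24, and 0.12 without replicate 2. Atp5g3, a membrane subunit of ATP synthase, was at 282, 426 and 378 CPM at 2 µM, against 260, 166 and 231 CPM at 0.2 µM (0.73, SE 0.19, and 0.60 without replicate 2). Ndufa1, a subunit of complex I, had the largest difference of the list, at 24.0, 23.2 and 32.5 CPM at 2 µM, against 16.1, 3.28 and 9.58 CPM at 0.2 µM (1.57, limma adjusted p 0.158, and 1.66 without replicate 2). Replicate 2 at 0.2 µM was the lowest of its 6 values. Proteasome subunits were higher for 30 of 44 and lower for 14 (median 0.16, and 0.15 without replicate 2). The immune proteasome activator subunit Psme2 was at 86.2, 90 and 99.7 CPM at 2 µM, against 73.4, 39.2 and 50.9 CPM at 0.2 µM (0.79, SE 0.21, and 0.80 without replicate 2). Mitochondrial ribosomal protein genes had 47 of 75 higher (median 0.08, and 0.07 without replicate 2) and translation factors 33 of 61 (median 0.03, and 0.05 without it), of which Eef1b2 was at 667, 715 and 704 CPM at 2 µM, against 568, 435 and 518 CPM at 0.2 µM (0.46, SE 0.13, and 0.44 without replicate 2).

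Lists of liver function went both ways. Genes of hepatocyte identity and secreted proteins were higher for 16 of 43 and lower for 27, with a median of -0.12 with and without replicate 2. Within them Cebpa, a transcription factor of hepatocyte differentiation, was at 28.5, 51.1 and 31.6 CPM at 2 µM, against 18.1, 15.3 and 17.8 CPM at 0.2 µM (1.03, SE 0.26, limma adjusted p 0.137, and 0.79 without replicate 2), and DESeq2's adjusted p was 0.030 with all libraries. Apob, the main protein of lipoproteins that the liver secretes, was at 128, 41.2 and 121 CPM at 2 µM, against 294, 144 and 357 CPM at 0.2 µM (-1.51, SE 0.44, adjusted p 0.171, and -0.99 without replicate 2). Albumin (Alb) was at 5356, 4712 and 5109 CPM at 2 µM, against 4701, 3952 and 4210 CPM at 0.2 µM, a difference of 0.24, and 0.29 without replicate 2. Cebpa and Alb did not overlap between the doses, and Apob did not either, its replicate 2 being the lowest library at each dose. The paralogues Serpina1a and Serpina1e, whose reads are hard to split, had differences of -0.54 and -1.15 with replicate 2 and -0.39 and -0.16 without it, so that 1 library carried most of the difference of Serpina1e.

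Retinoid and thyroid hormone genes, the setting in which transthyretin works, were higher for 14 of 18 (median 0.17, and 0.18 without replicate 2). Serpina7, thyroxine-binding globulin, was at 82.3, 78.5 and 89.0 CPM at 2 µM, against 50.2, 39.8 and 50.8 CPM at 0.2 µM (0.82, SE 0.28, and 0.86 without replicate 2). Dio3, which inactivates thyroid hormone, was at 62.8, 59.9 and 30.4 CPM at 2 µM, against 22.0, 26.8 and 25.3 CPM at 0.2 µM (0.95, SE 0.38, and 0.81 without replicate 2). Neither gene overlapped between the doses, and their limma adjusted p were 0.195 and 0.257. Rbp4, the retinol-binding partner of transthyretin, was at 1110, 1084 and 933 CPM at 2 µM, against 891, 976 and 887 CPM at 0.2 µM (0.18, SE 0.11, and 0.15 without replicate 2).

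Genes of NF-kB signalling and inflammation had the highest list median, 0.37, and 0.26 without replicate 2, with 12 of 18 higher. Sod2, a mitochondrial antioxidant enzyme that NF-kB induces, was at 65.3, 116 and 84.1 CPM at 2 µM, against 57.6, 23.7 and 44.1 CPM at 0.2 µM (1.11, SE 0.28, and 0.90 without replicate 2). The chemokine Cxcl1 was at 13.2, 18.6 and 21.7 CPM at 2 µM, against 12.1, 3.0 and 5.31 CPM at 0.2 µM (1.42, SE 0.46, and 1.38 without replicate 2). In both genes replicate 2 at 0.2 µM was the lowest of the 6 libraries. Nfkb1, a subunit of the factor itself, went the other way, at 4.36, 1.97 and 4.48 CPM at 2 µM, against 7.93, 10.5 and 8.18 CPM at 0.2 µM (-1.14, limma adjusted p 0.193, and -0.85 without replicate 2). Interferon response genes and RNA sensors, which respond to foreign RNA, had 17 of 41 higher (median -0.11, and -0.10 without replicate 2), and acute phase genes had 17 of 29 higher (median 0.11, and 0.08 without it). Fga, a fibrinogen chain, was at 138.5, 172 and 164 CPM at 2 µM, against 120, 98.9 and 100.5 CPM at 0.2 µM (0.57, SE 0.16, adjusted p 0.158, and 0.50 without replicate 2).

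The RNAi and microRNA machinery had 27 of 36 members lower and 9 higher (median -0.15, and -0.08 without replicate 2, when 23 were lower). Ago1, an Argonaute protein, was at 8.58, 10.4 and 6.08 CPM at 2 µM, against 10.9, 14.8 and 17.3 CPM at 0.2 µM (-0.72, SE 0.29, and -0.88 without replicate 2). Ran, which drives nuclear export of microRNA precursors, was at 220, 292 and 264 CPM at 2 µM, against 188, 145 and 170 CPM at 0.2 µM (0.62, SE 0.17, and 0.53 without replicate 2). Genes of the asialoglycoprotein receptor, endosome and lysosome had 29 of 53 higher, with a median of 0.02, close to that of all genes, and 0.08 without replicate 2. Cytochrome P450 and xenobiotic enzymes had 23 of 36 higher (median 0.14), and 27 of 36 (median 0.15) without replicate 2. Cyp27a1, a sterol hydroxylase, was at 35.0, 41.4 and 41.0 CPM at 2 µM, against 27.7, 11.4 and 18.8 CPM at 0.2 µM (1.06, SE 0.30, and 1.02 without replicate 2). Cyp2b9 had the largest difference of that list, at 81.6, 37.6 and 38.9 CPM at 2 µM, against 6.71, 7.55 and 10.6 CPM at 0.2 µM (2.46, SE 1.12, limma adjusted p 0.329, and 2.65 without replicate 2), with an SE that is pooled over all groups of the series. Metal and haem genes had 22 of 32 higher (median 0.14, and 0.10 without replicate 2), among them Cpox, an enzyme of haem synthesis, at 14.9, 14.2 and 12.7 CPM at 2 µM, against 8.45, 3.46 and 5.41 CPM at 0.2 µM (1.21, SE 0.34, and 1.19 without replicate 2). Metallothionein Mt2 was at 2141, 2820 and 2560 CPM at 2 µM, against 1930, 1852 and 1640 CPM at 0.2 µM (0.47, SE 0.14, and 0.38 without replicate 2).

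**Figure D2:**
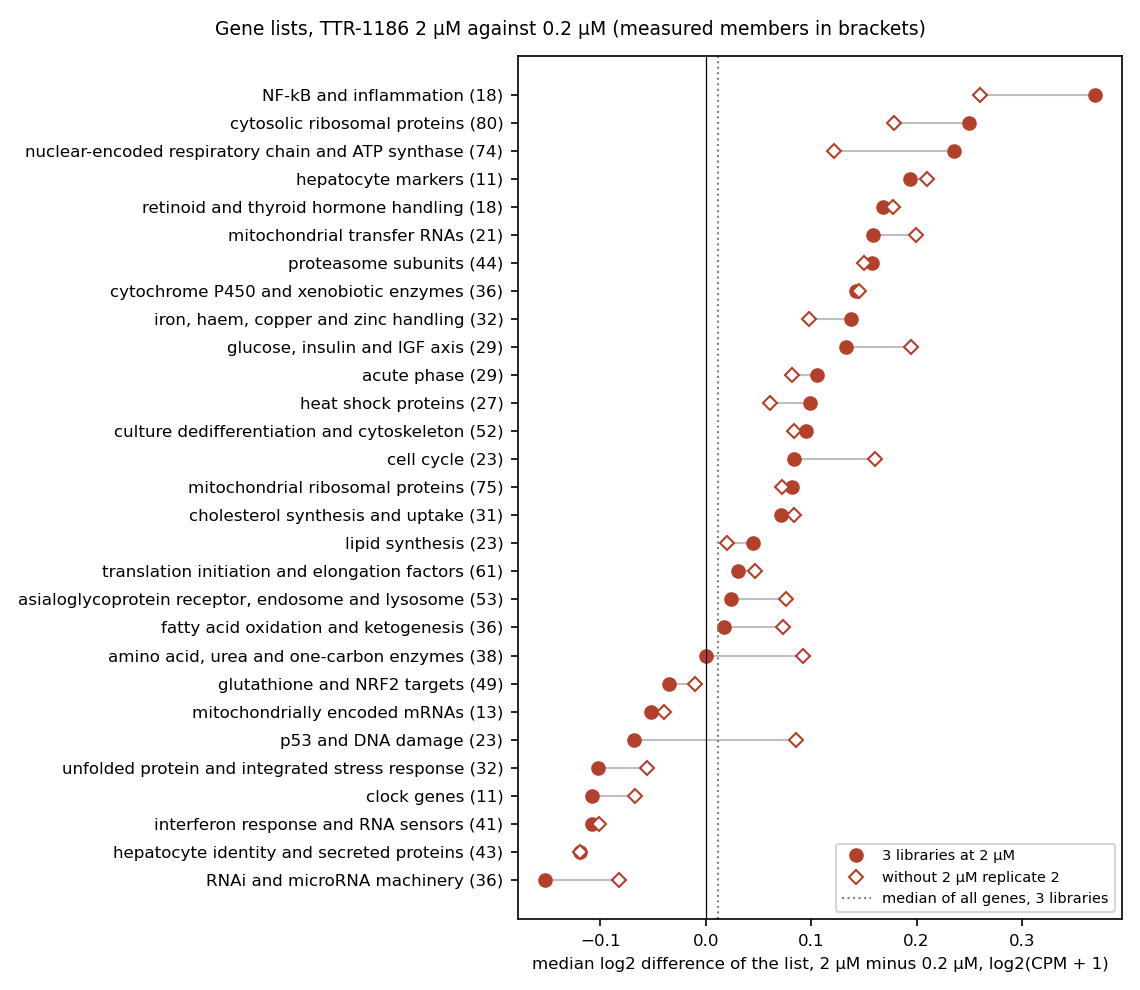
Median log2 difference of each list with at least 5 measured members, 2 µM minus 0.2 µM; filled circles use all 3 libraries at 2 µM, open diamonds leave out replicate 2, and the dotted line is the median of all genes (0.01). The medians run from -0.15 for the RNAi and microRNA machinery to 0.37 for NF-kB and inflammation.

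The remaining lists of cell function had medians between -0.11 and 0.13, and between -0.07 and 0.20 without replicate 2. Among them, glutathione and NRF2 target genes had 23 of 49 higher, and Prdx1, a peroxidase, was at 1524, 2053 and 1814 CPM at 2 µM, against 1286, 1053 and 1303 CPM at 0.2 µM (0.56, SE 0.16, and 0.46 without replicate 2). Genes of glucose, insulin and IGF signalling had 18 of 29 higher, and the binding protein gene Igfbp2 was at 13.9, 21.4 and 14.1 CPM at 2 µM, against 9.10, 4.09 and 7.09 CPM at 0.2 µM (1.20, SE 0.36, and 1.01 without replicate 2). Its relative Igfbp1, which insulin represses, was at 140, 194 and 188 CPM at 2 µM, against 179, 180 and 112 CPM at 0.2 µM (0.17, SE 0.18, and 0.08 without replicate 2). Igfbp2 did not overlap between the doses, whereas Igfbp1 did. Unfolded protein and integrated stress response genes had 14 of 32 higher, heat shock proteins 18 of 27, and cholesterol synthesis genes 18 of 31. The median of the p53 and DNA damage genes was -0.07, and 0.09 without replicate 2. Hpd, an enzyme of tyrosine breakdown, was at 10.6, 10.1 and 8.52 CPM at 2 µM, against 24.7, 27.9 and 14.1 CPM at 0.2 µM (-1.07, SE 0.36, and -1.09 without replicate 2). Genes of amino acid, urea and one-carbon metabolism, to which Hpd belongs, had 19 of 38 higher.

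The mitochondrial genome makes 2 long precursor RNAs, one from each strand, from which ribosomal, transfer and messenger RNAs are cut. Of its transfer RNA genes 21 were measured, and 14 were higher and 7 lower at 2 µM (13 and 8 without replicate 2). Neighbours on the minus strand, mt-Tn, mt-Tc and mt-Ty, led them. The gene mt-Tn, at 5089 to 5159 of chromosome M, was at 102.8, 132.5 and 124.1 CPM at 2 µM, against 72.6, 54.1 and 57.4 CPM at 0.2 µM (0.96, SE 0.18). The gene mt-Tc, at 5192 to 5257, was at 105.6, 210.2 and 163.9 CPM at 2 µM, against 84.7, 73.8 and 72.8 CPM at 0.2 µM (0.99, SE 0.20). The gene mt-Ty, at 5260 to 5326, was at 139, 226 and 188 CPM at 2 µM, against 108, 112 and 101 CPM at 0.2 µM (0.75, SE 0.18). In all 3 genes replicate 2 was highest at 2 µM, and the differences without it were 0.88, 0.77 and 0.59. The remaining gene of the cluster, mt-Ta, had a difference of 0.50 (SE 0.26) and overlapped between the doses. QuantSeq counts messenger RNA by its 3′ ends, so the values of these rows need not be levels of transfer RNA. Without a stated strand setting, reads from the other strand at the same place cannot be told apart from theirs.

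Elsewhere on the minus strand the genes went both ways. The gene mt-Tq was at 429, 635 and 416 CPM at 2 µM, against 336, 346 and 325 CPM at 0.2 µM (0.53, SE 0.21, and 0.33 without replicate 2), and its doses did not overlap. Lower values at 2 µM were seen for mt-Ts1 and mt-Te. The gene mt-Ts1, at 6870 to 6938, was at 6281, 4366 and 3610 CPM at 2 µM, against 7970, 7632 and 9384 CPM at 0.2 µM (-0.84, SE 0.22, and -0.80 without replicate 2). The gene mt-Te was at 951, 764 and 557 CPM at 2 µM, against 1324, 1760 and 1469 CPM at 0.2 µM (-1.03, SE 0.32, and -1.05 without replicate 2). Replicate 3, not replicate 2, was the lowest library at 2 µM for both. The start of mt-Ts1 meets the end, at 6872, of mt-Co1, a cytochrome oxidase messenger RNA of the other strand, which was at 3814, 3254 and 2668 CPM at 2 µM, against 4788, 3390 and 5151 CPM at 0.2 µM (-0.45 with and without replicate 2). The annotated overlap of mt-Ts1 and mt-Co1 runs from 6870 to 6872, and their reads cannot be told apart there. Unlike those of Sla2 and Rab5if, their rows hold different values. The 13 messenger RNAs of the mitochondrial genome had 6 higher and 7 lower (median -0.05, and -0.04 without replicate 2), and mt-Nd5, a complex I subunit, was at 618, 456 and 678 CPM at 2 µM, against 1099, 856 and 1485 CPM at 0.2 µM (-0.96, SE 0.30, and -0.79 without replicate 2).

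Both mitochondrial ribosomal RNAs were low in replicate 2 of either dose. As a summed share of CPM they made up 1.95%, 0.622% and 2.21% at 2 µM and 3.73%, 1.49% and 3.12% at 0.2 µM. The small one, mt-Rnr1, had a difference of -1.07 (SE 0.62) and -0.52 without replicate 2, and the large one, mt-Rnr2, had -0.84 (SE 0.57) and -0.26. Their groups overlapped between the doses.

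**Figure D3:**
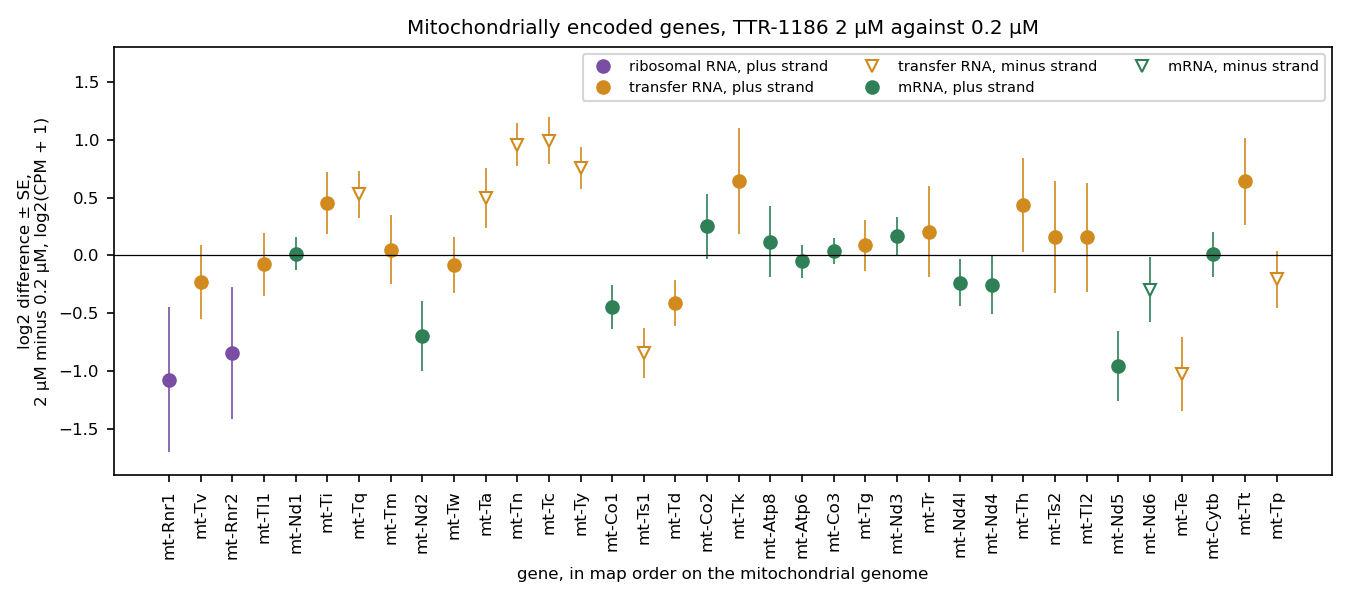
Log2 difference (2 µM minus 0.2 µM, with SE from limma) of each mitochondrially encoded gene in the files, in map order; colours mark the kind of RNA and open triangles the minus strand. The cluster from mt-Ta to mt-Ty lies at 0.50 to 0.99, whereas mt-Ts1 and mt-Te lie at -0.84 and -1.03.

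Replicate 2 at 2 µM was the lowest of the 6 libraries for 3044 genes (31.5%) and the highest for 2613 (27.1%). In the other 5 libraries the shares were 8.25% to 28.0% lowest and 9.04% to 17.6% highest, and the second-largest share of lowest values was that of replicate 2 at 0.2 µM. The correlation of replicate 2 at 2 µM with the 2 µM libraries of TTR-1236 and Reference 4 across genes was 0.919 to 0.935. It was 0.924 to 0.930 with TTR-1236 at 0.2 µM, 0.877 to 0.892 with Reference 4 at 0.2 µM and 0.876 to 0.922 with PBS. Replicates 1 and 3 at 2 µM correlated at 0.917 to 0.960 with the same 2 µM libraries. Of the 109 genes without a read in replicate 2 at 2 µM, 75 were protein coding and 22 pseudogenes, beside 8584 and 744 of all 9657. All 109 were above 1 CPM in each of the other 5 libraries. Nearly all genes were, since those libraries had 1 to 45 genes under 1 CPM each. Outside TTR-1186, libraries at 2 µM had 2 to 29 genes without a read, those at 0.2 µM 0 to 9, and PBS libraries 4 to 17. At the depth of replicate 2 at 2 µM a count of 0 allows up to 0.135 CPM (3 reads), for counting error only. Pcm1, a protein of centriolar satellites, was at 18.5, 0 and 17.7 CPM at 2 µM, against 37.9, 12 and 33.9 CPM at 0.2 µM. Vps13a, a lipid transfer protein, was at 10.2, 0 and 16.6 CPM at 2 µM, against 14.9, 16.5 and 14.3 CPM at 0.2 µM. Top2a, a topoisomerase of dividing cells, was at 5.85, 0 and 16.8 CPM at 2 µM, against 15.5, 9.50 and 15.2 CPM at 0.2 µM. Replicates 1 and 3 at 2 µM held reads of all 3 genes, and for Vps13a they lay close to the 0.2 µM libraries.

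Well-expressed genes also set this library apart. Atrx, a chromatin remodeller, was at 47.9, 8.48 and 43.5 CPM at 2 µM, against 73.7, 48.6 and 78.4 CPM at 0.2 µM. Serpina1e was at 317, 36.8 and 275 CPM at 2 µM, against 363, 394 and 250 CPM at 0.2 µM. Prrc2c, a protein of stress granules, was at 98.2, 17.3 and 112 CPM at 2 µM, against 153, 86.3 and 150 CPM at 0.2 µM. In the other direction Lrrc17, a secreted leucine-rich repeat protein, was at 117, 261 and 92.3 CPM at 2 µM, against 108, 75.9 and 127 CPM at 0.2 µM. Idh2, the mitochondrial isocitrate dehydrogenase, was at 50.8, 104 and 47.0 CPM at 2 µM, against 45.8, 67.3 and 53.5 CPM at 0.2 µM. In all 5 genes replicates 1 and 3 at 2 µM lay nearer to each other than to replicate 2. They were chosen for the distance of replicate 2 and describe that library, not the dose.

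**Figure D4:**
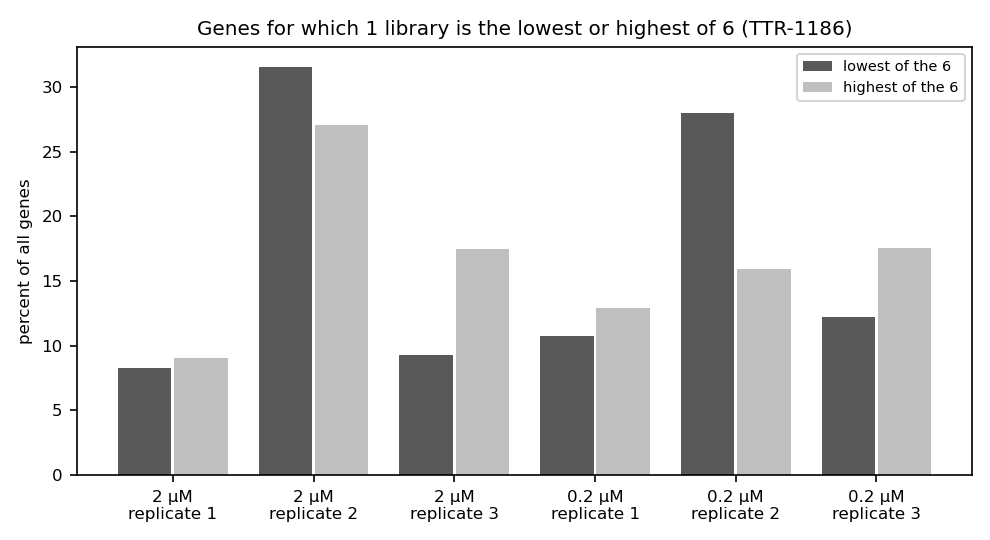
Percent of the 9657 genes for which each TTR-1186 library is the lowest (dark bars) or the highest (light bars) of the 6, with axes from 0. Replicate 2 at 2 µM has 31.5% and 27.1%, and replicate 2 at 0.2 µM has 28.0% of the lowest values.

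Dose differences of the other agents rest on libraries that TTR-1186 does not share. TTR-1236 had 0 genes higher and 13 lower (0.135%) at 2 µM than at 0.2 µM past the limma threshold, and Reference 4 had 655 higher (6.78%) and 584 lower (6.05%). Across genes, the TTR-1186 difference had a Pearson r of 0.37 with that of TTR-1236 and 0.58 with that of Reference 4, and 0.20 and 0.51 without replicate 2, as a description over 9657 genes that are not independent. The 12 genes leading higher were positive for 8 with TTR-1236 (median 0.06, beside 42.1% of all genes) and for 12 with Reference 4 (median 0.44, beside 52.2%). The 12 leading lower were negative for 12 with TTR-1236 (median -0.42, beside 57.9%) and for 9 with Reference 4 (median -0.63, beside 47.8%). Dst was at -1.07 with TTR-1186, -1.05 with TTR-1236 and -1.20 with Reference 4, and Apob was at -1.51, -2.09 and -2.76. Rps28 was at 1.02 with TTR-1186, -0.18 with TTR-1236 and 1.22 with Reference 4. The summed share of cytosolic ribosomal protein genes did not follow Rps28 with TTR-1236. It was 9.60%, 9.40% and 9.97% of CPM at 2 µM, against 8.84%, 8.46% and 8.98% at 0.2 µM. With Reference 4 it was 9.05%, 9.24% and 9.63% at 2 µM, against 8.40%, 9.38% and 8.29% at 0.2 µM. Cebpa was at 1.03 with TTR-1186, 0.00 with TTR-1236 and 0.08 with Reference 4. Igfbp1 was at 0.17 with TTR-1186, 0.83 with TTR-1236 and 1.35 with Reference 4.

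Tested directly, the dose difference of TTR-1186 passed the limma threshold against that of TTR-1236 for 0 genes, with 658 (6.81%) at an unadjusted p under 0.05, and against that of Reference 4 for 0 genes, with 874 (9.05%). Against TTR-1236 the 658 were 530 higher and 128 lower, which TMM scaling moved to 402 and 227, and 565 were higher and 81 lower without replicate 2. Against Reference 4 limma called 1 gene without replicate 2, with 559 higher and 248 lower at an unadjusted p under 0.05. In the test against Reference 4 DESeq2 called 25 of the 3291 genes to which it gave an adjusted p, and 16 of 5538 without replicate 2. The limma counts are over 9657 genes, so the counts do not cover the same genes. Of the 12 genes leading higher, 11 had an unadjusted p under 0.05 against TTR-1236 and 3 against Reference 4, and of the 12 leading lower 3 and 5, with a lowest limma adjusted p of 0.359. For Igfbp1 the test against Reference 4 gave an unadjusted p of 9.68e-05 and a limma adjusted p of 0.133, whereas DESeq2 called it (-1.24, adjusted p 0.0045, and -1.36, adjusted p 0.0028, without replicate 2). The leading genes were picked by their TTR-1186 values, so a distance from the other agents is partly set by that choice.

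**Figure D5:**
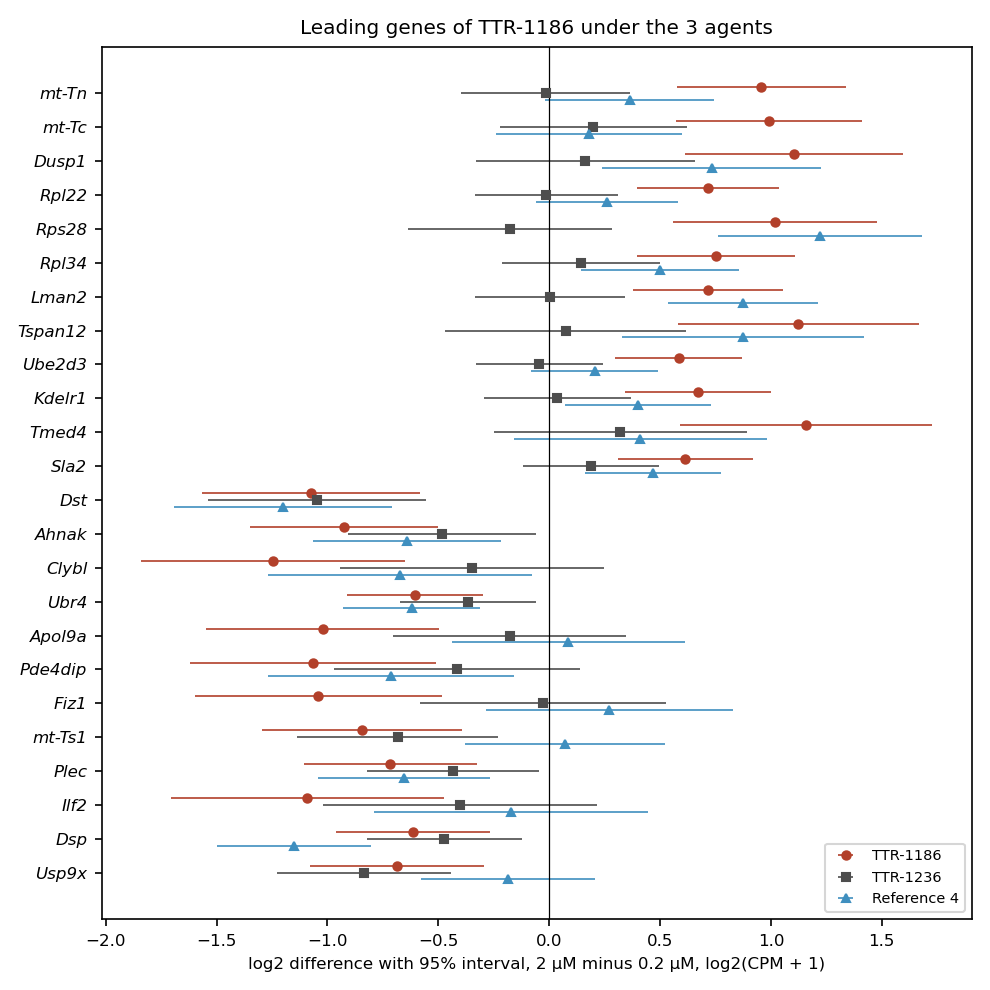
Log2 difference, 2 µM minus 0.2 µM, with its limma 95% interval, of the 24 leading genes under TTR-1186 (circles), TTR-1236 (squares) and Reference 4 (triangles). The genes leading higher lie near 0 with TTR-1236 (-0.18 to 0.32), whereas Dst lies between -1.20 and -1.05 with all 3 agents.

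The PBS libraries enter no dose comparison and give a level without agent. For all 12 genes leading higher the PBS mean lay between the means of the doses, and for 10 of the 12 it was nearer to 2 µM. Dusp1 averaged 71.0 CPM in PBS, Tspan12 21 CPM and Sod2 78.1 CPM. Of the 12 genes leading lower, the PBS mean lay between the doses for 10 and above both for 2, and it was nearer to 2 µM for 6. Both sets were picked for the distance between the doses, so a PBS mean between them is partly set by that choice. The share over all genes was not counted, so these counts do not place PBS nearer to either dose. Fga averaged 237 CPM and Igfbp1 386 CPM in PBS, above both doses. Against PBS, TTR-1186 had 1 gene higher (0.0104%) and 4 lower (0.0414%) at 2 µM and 0 higher and 3 lower (0.0311%) at 0.2 µM past the limma threshold, comparisons that share the PBS libraries.

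The leading genes also differed in length. The longest annotated transcript had a median of 2182 bases over the 10 protein coding genes leading higher and 9592 bases over the 11 leading lower, against 3326.5 bases over all 8584 protein coding genes. Over genes with an unadjusted p under 0.05, the medians were 2351 bases for the higher and 4274 bases for the lower, and 2289 and 3984 bases without replicate 2. Across protein coding genes the Spearman correlation of length with the dose difference was -0.24 (-0.18 without replicate 2), beside -0.33 with TTR-1236 and -0.31 with Reference 4. Genes with replicate 2 lowest of the 6 had a median of 3908 bases, and those with it highest 2916 bases. The part of transcript length or RNA quality in the dose difference was not tested.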

How the data were processed

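Per the submitters' processing notes, the tools were cutadapt 1.15, HISAT2 2.1.0 and featureCounts, and the build was mm10. The strand setting, annotation release and any filter were not given in the sources used here. Values deposited by the authors are in CPM, and each library adds up to 1000000 over the same 9657 genes. All values (100%) came out as whole reads within 0.001 reads, which gave back 14158740 to 37410773 reads per library. Of the gene identifiers 9652 matched GENCODE annotation of GRCm38.

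Differences were fitted with limma 3.58.1 in R 4.3.3 on log2(CPM + 1), with 7 group means over 21 libraries, a trended and robust prior and Benjamini-Hochberg adjustment over 9657 genes. This scale understates changes of genes with low CPM. The fit was tested on simulated reads. Alternatives were edgeR 4.0.16 and DESeq2 1.42.0 on the recovered reads, other pseudocounts, a filter, a replicate block, subsets of libraries and each library left out. The most alike pair of replicates had a chi-square of 25.1 per degree of freedom, so no library was taken for a copy of another.

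The groups, members and gene lists were chosen with earlier results of these data known. Genes are named as Ttr, the 12 leading genes per direction as defined in the results, the 2 members with the smallest p of a list, a few genes named in an earlier account, and genes for which replicate 2 was far from replicates 1 and 3. Gch1, Eif3i, Lnpep, Rpl7a, Ndufa1, Nfkb1, Cyp2b9, mt-Ta, mt-Te, mt-Tq, Pcm1, Vps13a and Rab5if were named after their values were seen. So were the overlapping neighbours Zfp524, Snapin, Emc1 and Parp10. Some genes this rule selects are not reported here.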

Additional observations from a re-analysis of the deposited data

How the results depend on the processing

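The count of genes past the threshold between the TTR-1186 doses was 0 in limma and in edgeR with either scaling. It was 71 of 7597 (49 higher, 22 lower) in DESeq2, and 0 to 2 in limma with each library left out. The 2 came without 2 µM replicate 1, with mt-Tc higher and Apol9a lower. DESeq2 and edgeR without 2 µM replicate 2, chosen after seeing the data, called 0. Whether replicate numbers pair the samples could not be settled. Same-numbered deviations correlated at -0.04, 0.24 and 0.23, and differently numbered ones at -0.34 to 0.27. A replicate block gave 0 calls over 21 libraries and 11 over the 6 TTR-1186 libraries, 1 higher (Cyp2b9) and 10 lower, and 0 of the 24 leading genes were among them. The 10 include Apob (adjusted p 0.0088), mt-Rnr1 (0.0088) and mt-Nd5 (0.023).

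The test of TTR-1186 against TTR-1236 dose differences called 0 to 3 genes with each library left out (3 without TTR-1236 2 µM replicate 2), and 1 in DESeq2 without TTR-1186 2 µM replicate 2. Rescaling with TMM factors moved the median of all genes in this test to 0.02, against 0.11 with CPM as deposited. The test against Reference 4 called 25 of 3291 in DESeq2 (16 higher, 9 lower) and 16 of 5538 in DESeq2 without 2 µM replicate 2 (15 higher, 1 lower). It called 1 in edgeR without that library, and 0 to 1 in limma with each library left out. The 1 was Igfbp1 without TTR-1186 0.2 µM replicate 3. It was a different gene each time without TTR-1186 2 µM replicate 2, Reference 4 0.2 µM replicate 3 or Reference 4 2 µM replicate 2.

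Ttr stayed on its side of the threshold, with a log2 difference of 0.22 to 0.89 over the libraries left out. The differences of 5 genes turned sign. As reported they were 0.01 for Acta2, 0.17 for Igfbp1, 0.41 for Tspan8, -0.52 for Stab1 and within 0.01 of 0 for Csf1r. Csf1r was 0.0075 with a pseudocount of 5 and -0.19 to 0.23 with each library left out. Stab1 was -0.90 to 0.14 with each library left out, and without 2 µM replicate 2 it was 0.14 over 5 libraries, 0.048 in edgeR and 0.013 in DESeq2. Acta2 was -0.036 and -0.047 in edgeR with TMM and DESeq2 size factors, -0.047 in DESeq2, -0.030 with TMM-scaled CPM and -0.14 to 0.23 with each library left out, and without replicate 2 it was -0.14 over 5 libraries, -0.23 in edgeR and -0.25 in DESeq2. Tspan8 was -0.26 to 0.93 and Igfbp1 -0.057 to 0.32 with each library left out, and Igfbp1 was -0.024 in DESeq2 without replicate 2. Of the other single-gene values under alternatives 1860 kept their direction and side and 34 passed the threshold. Of the list medians under alternatives 300 moved by less than 1 SD over the 2 µM libraries and 40, in 15 lists, by more. TMM scaling turned the sign of the medians of translation factors, asialoglycoprotein receptor and lysosome genes and fatty acid oxidation genes, and leaving out 0.2 µM replicate 3 that of acute phase genes. The cause of these changes was not tested. Depth limits low genes, as 1 read is a large step at a few CPM.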
